A study of Mus musculus with 9 samples.

Results

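The transcripts of 6 genes for the phagocyte NADPH oxidase, Ncf1, Ncf4, Cyba, Cybc1, Rac1 and Rac2, were followed in RNA sequencing of mouse colon macrophages. They were taken by symbol from a table of 42454 genes, in which all 6 were found. The macrophages (Ly6C low, MHC-II+) had been sorted from the lamina propria of 6-week-old mice of 3 genotypes, WT, p47phox-/- and gp91phox-/-, with 3 libraries each. The colon is named as the tissue for every library. No treatment is given for any group. The alleles of the knockouts and their strain background are not stated, and neither is the number of mice behind the libraries, so the p-values refer to variation among libraries, some of which may be technical.

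The oxidase makes superoxide by passing electrons from NADPH across a membrane to oxygen. Its catalytic subunit gp91phox (encoded by Cybb) sits in the membrane with p22phox (Cyba), and the maturation and stability of this pair depend on the chaperone Eros (Cybc1). When a phagocyte is activated, the organiser p47phox (Ncf1) is phosphorylated and docks on p22phox, bringing with it p40phox (Ncf4), a subunit that binds phosphatidylinositol 3-phosphate on phagosomes, while a Rac GTPase in its GTP-bound form completes the complex. Rac2 is the isoform of blood-forming cells and Rac1 is expressed in most tissues. Loss of subunits of this complex causes chronic granulomatous disease, in which phagocytes fail to kill certain microbes and the bowel is often inflamed.

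The libraries held 31141107 to 52797368 reads on genes. With 35514683 and 31141107 reads, p47phox-/- replicates 2 and 3 had a read on 14323 and 14268 genes, against 17754 in p47phox-/- replicate 1 (34503133 reads), 15825 to 17280 in WT and 18115 to 18760 in gp91phox-/-, whose replicate 2 was the deepest library and had the highest gene number. All 14 macrophage markers were detected and passed the filter on low values, and none of them was called in p47phox-/- against WT (limma, with 4 at an unadjusted p under 0.05, 0 called in edgeR and 1, Itgam, in DESeq2). Of all genes tested in this comparison, limma called 1.12%, and 15.0% had an unadjusted p under 0.05. Markers of B and plasma cells were also present, with summed normalized counts of 25775 to 54078 in WT, 25434 to 35599 in p47phox-/- and 3816 to 5814 in gp91phox-/-. Neutrophils also use this oxidase. Of 10 neutrophil markers 8 had a read and 2, Csf3r and Retnlg, passed the filter, with summed normalized counts of 4130 to 6035 in WT, 3998 to 4895 in p47phox-/- and 5540 to 5971 in gp91phox-/-. Nearly all of this sum was Csf3r, the receptor for granulocyte colony-stimulating factor (4116 to 6019 in WT, 3969 to 4887 in p47phox-/- and 5519 to 5918 in gp91phox-/-). The granulocyte surface antigen Ly6g was at 0 in WT and p47phox-/- and at 7.74 ± 2.32 (SD, n = 3) in gp91phox-/-, and Camp and Ngp, for granule proteins, were at 0 in all 9 libraries. Retnlg was highest in p47phox-/- (8.79 to 29.5, against 0 to 10.3 in WT and 0 to 2.68 in gp91phox-/-). By mean, Cxcr2 (7.27) and Mpo (4.12) were highest in WT. S100a8 (11.6), S100a9 (3.98) and Elane (0.60) had their highest means in gp91phox-/-, where S100a8 ranged from 0 to 31.3. The part of neutrophils in the subunit values was not tested.

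Like the other genes of chromosome X, Cybb was listed at 0 in each of the 9 libraries, so the target of the gp91phox-/- group could not be read and the labels of these 3 libraries were not checked on it. The targeted gene of p47phox-/-, Ncf1, could be read and is the member with the greatest differences. On GRCm38, Ncf1 lies on the minus strand at chr5:134220053-134229625 and Rac1 on the same chromosome and strand at chr5:143503634-143528036. Cyba lies at chr8:122424776-122432930 and Cybc1 at chr11:121222588-121229322, both on the minus strand. Ncf4 (chr15:78244801-78262580, plus strand) and Rac2 (chr15:78559167-78572783, minus strand) are on the same chromosome. All are protein-coding genes. Short stretches at least 95% identical to transcripts of other genes were found in Cyba (18 genes, 101 to 145 bases) and Rac2 (7 genes, 107 to 124 bases), and Ncf1 shares 408 of its 3663 exonic bases with Gtf2ird2 on the opposite strand (mean normalized count 179). Part of these counts is therefore uncertain, and how many reads are affected was not measured.

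The start regions of Ncf1, the targeted gene, and Cyba, its docking partner in the membrane, are shown because these are the members with the lowest and highest differences of p47phox-/- from WT. RefSeq promoters of GRCm38.p6 were matched for 3 of the 6 members (Ncf1, Cyba and Cybc1), each as 300 bases with 250 before the transcription start and 50 after it. Capitals mark matches, on either strand, to the GC box GGGCGG bound by Sp1-type factors or to the interferon response core, written GAAA, any 2 bases, GAAA.
Ncf1 promoter, chr5:134229576-134229875, minus strand: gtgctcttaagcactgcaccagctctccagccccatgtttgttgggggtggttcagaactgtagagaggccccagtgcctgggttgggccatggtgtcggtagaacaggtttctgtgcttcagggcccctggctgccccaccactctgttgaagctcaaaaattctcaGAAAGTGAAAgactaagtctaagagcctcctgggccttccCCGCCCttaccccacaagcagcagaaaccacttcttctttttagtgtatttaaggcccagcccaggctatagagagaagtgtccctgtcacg
Cyba promoter, chr8:122432891-122433190, minus strand: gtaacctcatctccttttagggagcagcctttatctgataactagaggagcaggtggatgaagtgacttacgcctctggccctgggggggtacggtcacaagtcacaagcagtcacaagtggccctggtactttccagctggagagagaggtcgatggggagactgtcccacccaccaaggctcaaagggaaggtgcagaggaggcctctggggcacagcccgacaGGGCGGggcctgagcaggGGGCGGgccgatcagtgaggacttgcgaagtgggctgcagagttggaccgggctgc
Both promoters hold the GC box. The Ncf1 window has it once, on the opposite strand, starting 42 bases before the transcription start, and the Cyba window has it 2 times, starting 24 and 6 bases before. It occurs in 35.7% of 32841 promoters of the same length, so its presence is common. The interferon response core stood in the Ncf1 window as GAAAGTGAAA, starting 82 bases before the transcription start, and occurs in 3.44% of the promoters. The letters GAGGAA, the core recognised by the myeloid factor PU.1 (Spi1), were searched as well. They occur in 28.3% of promoters and were found in neither window, but stood once in the second of the 2 Cybc1 windows. The motifs do not overlap one another, and a match describes letters, not binding.

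Rac1 and Rac2 are close relatives. No stretch of 100 bases or more was at least 95% identical between the transcripts of the 2 genes, so their counts were read as separate.

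The level of Ncf1 transcript was much lower in p47phox-/- macrophages, but it was far from absent. In WT replicates 1, 2 and 3 Ncf1 had normalized counts of 10065.7, 8990 and 10815. In p47phox-/- the values were 2718, 3733 and 3133, which is 27.3, 37.5 and 31.5% of the WT mean. In gp91phox-/- they were 13617.5, 12136 and 13365. The 3 groups did not overlap anywhere, with every p47phox-/- library lowest and every gp91phox-/- library highest. Ncf1 was 3.13-fold lower in p47phox-/- than in WT (95% interval 2.54 to 3.86, log2 fold change -1.65, SE 0.14, limma adjusted p = 0.000348). Between the knockouts the difference was 4.11-fold (interval 3.34 to 5.07, log2 fold change 2.04, adjusted p = 3.42e-06). In gp91phox-/- against WT the log2 fold change was 0.39 (interval 0.09 to 0.69), which was not called (adjusted p = 0.118), although DESeq2 on recovered reads called it (log2 fold change 0.41, adjusted p = 0.0425). The summed B and plasma cell markers given above were lowest in the same 3 gp91phox-/- libraries, and their part in the Ncf1 values was not tested. In bulk RNA, fewer cells that express a gene and less of its RNA per cell cannot be told apart.

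**Figure D1:**
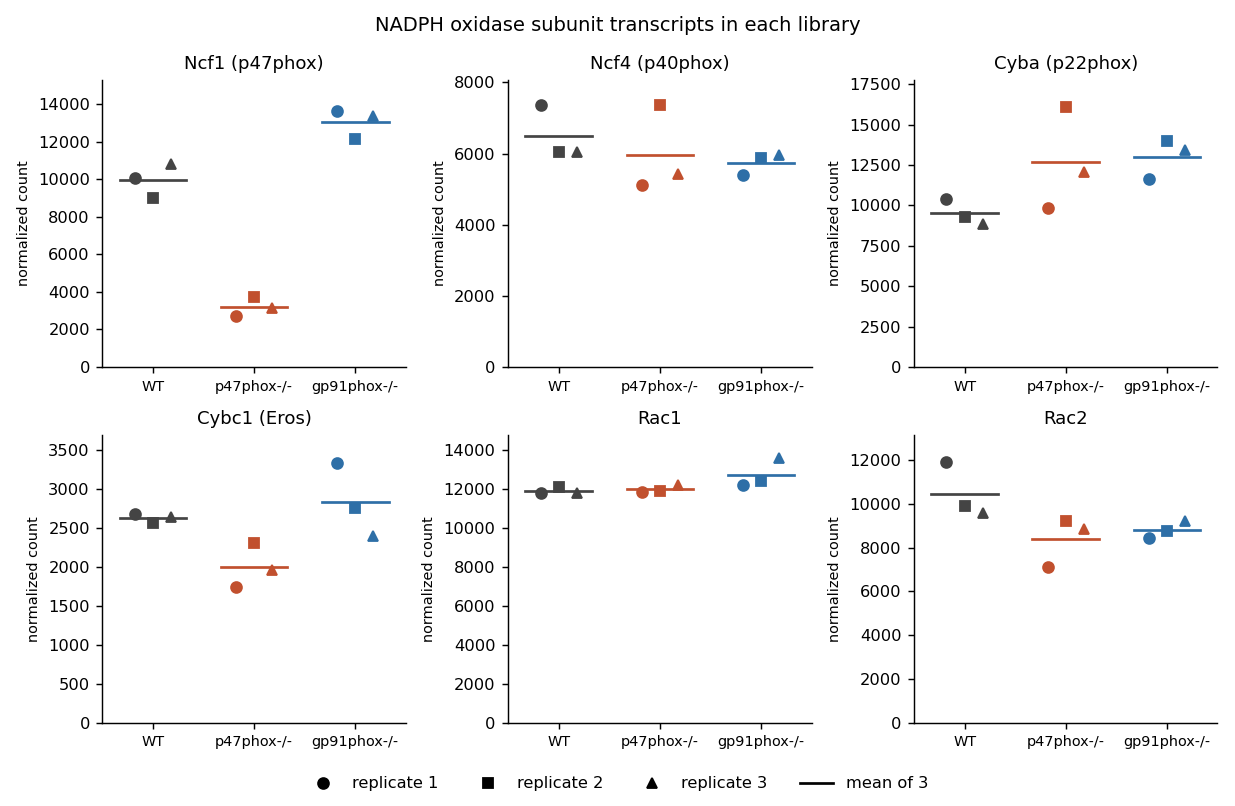
Normalized counts of the 6 oxidase subunit genes in the 9 libraries, 1 panel a gene, with replicate 1 as a circle, replicate 2 as a square, replicate 3 as a triangle and the mean of 3 as a line; each vertical axis starts at 0. Ncf1 is between 2718 and 3733 in p47phox-/-, below every WT and gp91phox-/- library, while Rac1 stays between 11804 and 13593 in all 9.

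Counted over the 6 genes, 1 was called in p47phox-/- against WT (Ncf1, lower), beside 1.12% of the 14404 genes tested and 0.5% called lower. At an unadjusted p under 0.05 there were 4 of 6, beside 15.0% of all genes. The libraries of the 2 groups did not overlap for 3 of the 6 (Ncf1, Cybc1 and Rac2, all lower in p47phox-/-), beside 17.7% of all genes in either direction and 8.49% lower. The median log2 fold change of the 6 was -0.23, against -0.02 over all genes tested. All 6 passed the filter on low values. Ncf1, the targeted gene, is included in these counts.

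The membrane subunit p22phox had the transcript with the highest level of the set per length. Cyba had normalized counts of 10405, 9303 and 8838 in WT, 9829, 16098 and 12066 in p47phox-/- and 11614, 14001.5 and 13398 in gp91phox-/-. All 3 gp91phox-/- libraries lay above all WT libraries, while p47phox-/- replicate 1 was inside the WT range and replicates 2 and 3 were above it. Against WT the log2 fold change of Cyba was 0.45 in gp91phox-/- (SE 0.17, interval 0.08 to 0.82, adjusted p = 0.143) and 0.39 in p47phox-/- (interval 0.02 to 0.76, adjusted p = 0.31), and neither was called. The gp91phox-/- difference was called when p47phox-/- replicate 2 was left out of the common fit (log2 fold change 0.45, adjusted p = 0.0442), a library that enters this comparison only through the shared estimate of spread. The p47phox-/- difference was 0.05 when replicates 2 and 3, the libraries with reads on the fewest genes, were left out together (adjusted p = 0.97), and whether their lower gene number bears on Cyba was not tested. Between the knockouts the log2 fold change was 0.06 (interval -0.31 to 0.43, adjusted p = 0.847).

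Cybc1, whose product Eros supports the gp91phox and p22phox pair, had the lowest level of the set per length. Its normalized counts were 2681, 2557.5 and 2634 in WT, 1742, 2311 and 1954 in p47phox-/- and 3336, 2760 and 2396 in gp91phox-/-. The 3 p47phox-/- libraries were below all others, and the gp91phox-/- libraries lay on both sides of the narrow WT range. In p47phox-/- against WT the log2 fold change was -0.40 (SE 0.15, interval -0.73 to -0.07), which was not called (adjusted p = 0.236), and in gp91phox-/- it was 0.10 (interval -0.23 to 0.42, adjusted p = 0.774). Between the knockouts Cybc1 was at the threshold, with a log2 fold change of 0.50 (interval 0.17 to 0.82, adjusted p = 0.0565). That difference was called in edgeR (0.55, adjusted p = 0.045) and DESeq2 (0.54, adjusted p = 0.0107), without p47phox-/- replicate 2 (0.60, adjusted p = 0.0287) and without gp91phox-/- replicate 3 (0.61, adjusted p = 0.0498).

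Ncf4, for p40phox, showed no called difference. Its normalized counts were 7354, 6040 and 6054 in WT, 5106, 7363 and 5417 in p47phox-/- and 5392, 5862 and 5949.5 in gp91phox-/-. WT replicate 1 and p47phox-/- replicate 2 stood above the other 7 libraries. The log2 fold change against WT was -0.13 in p47phox-/- (interval -0.46 to 0.20, adjusted p = 0.713) and -0.17 in gp91phox-/- (interval -0.50 to 0.16, adjusted p = 0.572). The gp91phox-/- libraries all lay below the WT libraries, the highest at 5949.5 against the lowest WT value of 6040.

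Of the GTPases, Rac1 varied little between libraries. Rac1 had normalized counts of 11805, 12132 and 11804 in WT, 11873, 11924.5 and 12215 in p47phox-/- and 12203.5, 12450 and 13593 in gp91phox-/-. Its coefficient of variation was 1.59% in WT and 1.53% in p47phox-/-, the lowest of the 6 genes in both groups, and 5.82% in gp91phox-/-. The log2 fold change of Rac1 against WT was 0.01 in p47phox-/- (interval -0.23 to 0.25, adjusted p = 0.975) and 0.10 in gp91phox-/- (interval -0.14 to 0.33, adjusted p = 0.675). Rac1 shares 2309 of its 4496 exonic bases with Daglb on the opposite strand (mean normalized count 3475), and whether reads were counted by strand is not known from the sources used here, so reads of the pair may be split or mixed.

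Rac2 was highest in WT. Its normalized counts were 11923.5, 9922 and 9564 in WT, 7097, 9218 and 8830 in p47phox-/- and 8460, 8761 and 9209 in gp91phox-/-. Every knockout library lay below every WT library. Of all genes, 8.49% lay below WT in this way in p47phox-/- and 18.2% in gp91phox-/-, and the share in both was not tested. The log2 fold change against WT was -0.32 in p47phox-/- (SE 0.14, interval -0.62 to -0.02, adjusted p = 0.296) and -0.24 in gp91phox-/- (interval -0.54 to 0.06, adjusted p = 0.342), so neither was called. The knockouts share the WT libraries, of which replicate 1 was the highest. Without WT replicate 1 the log2 fold changes were -0.23 in p47phox-/- and -0.15 in gp91phox-/-.

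In gp91phox-/- against WT, 0 of the 6 genes were called in limma, beside 7.05% of all genes tested, with 2 at an unadjusted p under 0.05 (Ncf1 and Cyba) beside 21.7%. There were 0 called in edgeR and 1 (Ncf1) in DESeq2. The libraries did not overlap for 5 of the 6 (Ncf1, Cyba and Rac1 higher, Ncf4 and Rac2 lower), beside 33.3% of all genes, 15.1% higher and 18.2% lower. In gp91phox-/- against p47phox-/-, 1 of 6 was called (Ncf1, higher), beside 9.93% of all genes and 3.97% called higher, and 2 of 6 (Ncf1 and Cybc1, both higher) had libraries that did not overlap, beside 30.9% in either direction and 13.6% higher. The same 2 genes had an unadjusted p under 0.05, beside 26.0% of all genes. The median log2 fold change of the 6 was 0.10 in gp91phox-/- against WT, where all genes had 0.01, and 0.08 between the knockouts, where all genes had 0.02.

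**Figure D2:**
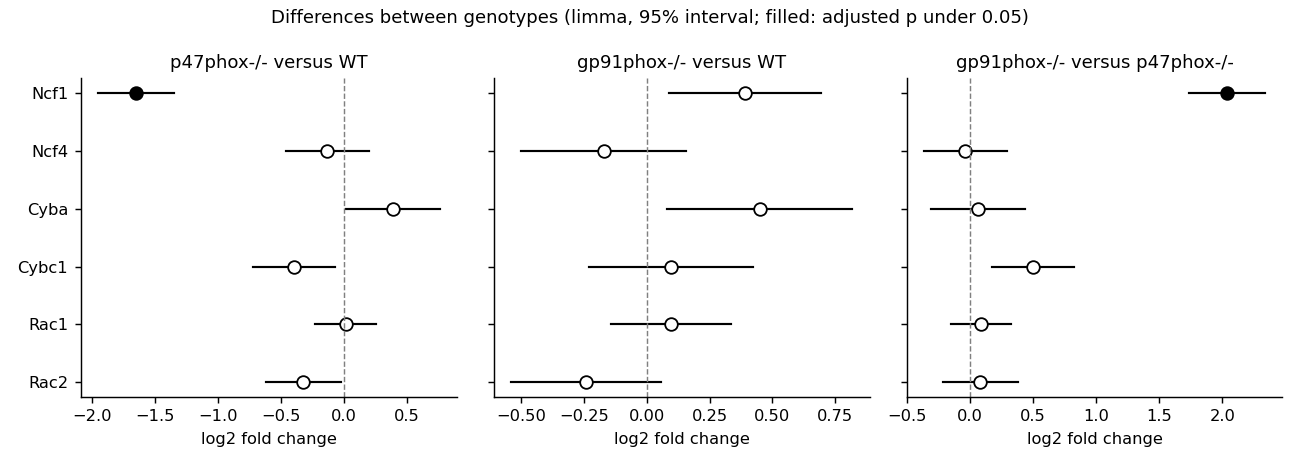
Log2 fold change of each oxidase subunit gene in the 3 comparisons (points, limma) with its 95% interval (bars); filled points have an adjusted p under 0.05 and the dashed line is no difference. The 2 filled points are Ncf1, at -1.65 in p47phox-/- versus WT and 2.04 in gp91phox-/- versus p47phox-/-; the horizontal scale differs between panels.

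Ratios of subunits within a library do not depend on how libraries were scaled to each other, so 4 ratios were compared between the genotypes in 12 exact two-sided permutation tests. With 3 libraries against 3 the smallest p such a test can give is 0.1 (0.133 after adjustment over the 12), so no ratio could pass 0.05. The log2 ratio of Ncf1 to Ncf4 was 0.45, 0.57 and 0.84 in WT, -0.91, -0.98 and -0.79 in p47phox-/- and 1.34, 1.05 and 1.17 in gp91phox-/-. Its groups did not overlap in any comparison (exact permutation p = 0.1 each), and its mean in gp91phox-/- was 1.48-fold that in WT. The log2 ratio of Ncf1 to Cyba, the pair whose proteins dock, was -0.05, -0.05 and 0.29 in WT and 0.23, -0.21 and 0.00 in gp91phox-/-. These values overlapped, with a difference in mean of -0.06 (exact permutation p = 0.7, adjusted p = 0.764). In p47phox-/- the same ratio was -1.85, -2.11 and -1.94, with no overlap.

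2 other ratios were lower in every knockout library than in every WT library. The log2 ratio of Ncf4 to Cyba was -0.50, -0.62 and -0.55 in WT, -0.94, -1.13 and -1.16 in p47phox-/- and -1.11, -1.26 and -1.17 in gp91phox-/-. It was lower than WT in each knockout library, by a mean of 0.52 in p47phox-/- and 0.62 in gp91phox-/-, and the knockouts overlapped (exact permutation p = 0.4, adjusted p = 0.48). The log2 ratio of Rac2 to Rac1 was 0.01, -0.29 and -0.30 in WT, -0.74, -0.37 and -0.47 in p47phox-/- and -0.53, -0.51 and -0.56 in gp91phox-/-. All 6 knockout libraries were below all WT libraries, by a mean of 0.33 and 0.34, and between the knockouts the difference was -0.01 (exact permutation p = 1). Both knockouts are set against the same WT libraries, so these 2 comparisons are not independent. Separation from WT was common among single genes, at 17.7% in p47phox-/- and 33.3% in gp91phox-/-. How often ratios of other gene pairs separate in this way was not tested.

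**Figure D3:**
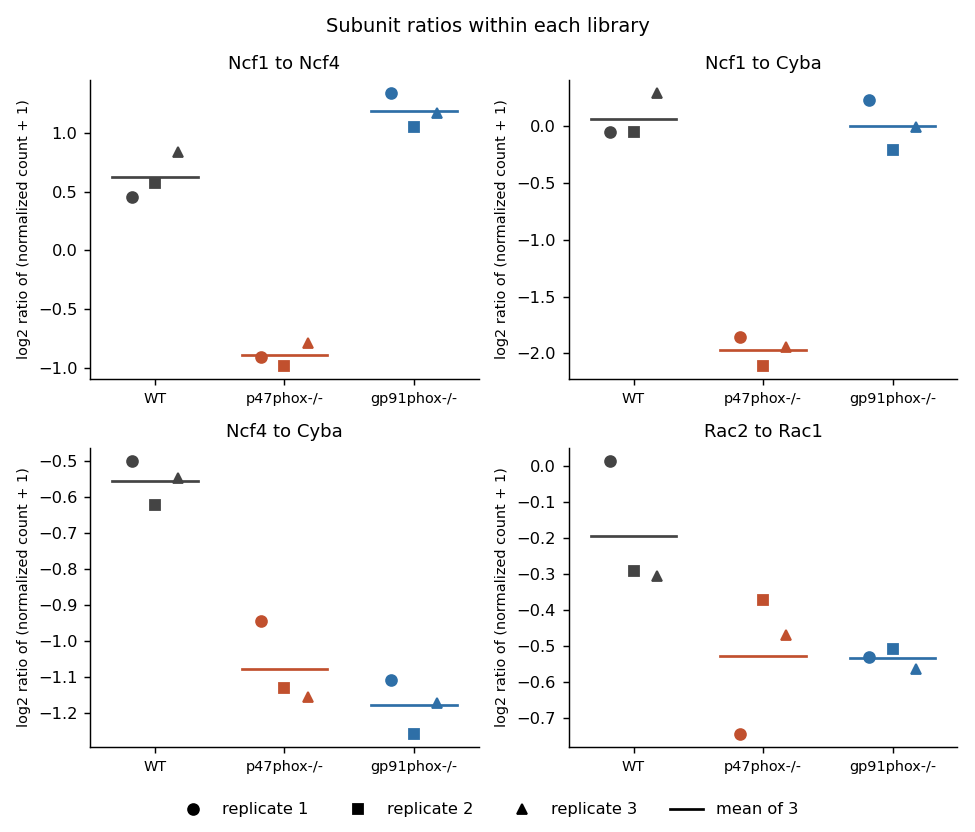
Log2 ratio of 2 subunit transcripts within each of the 9 libraries, 1 panel a ratio, with replicates as circles, squares and triangles and the mean of 3 as a line; the vertical scale differs between panels and does not start at 0. The Ncf4 to Cyba ratio lies between -0.62 and -0.50 in WT and at -0.94 or below in the 6 knockout libraries.

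Levels of different genes were compared as normalized count per kilobase of merged exons. In WT, Cyba led with 9158 ± 775 (SD, n = 3), followed by Rac2 with 3374 ± 410, Ncf4 with 3209 ± 374, Ncf1 with 2718 ± 251, Rac1 with 2650 ± 42.0 and Cybc1 with 623 ± 14.8. Neighbours in this order whose WT ranges overlapped were Rac2 with Ncf4 and Ncf1 with Rac1. Ncf1 was above 96.1% of the 13547 tested genes with an exon length in WT, 87.7% in p47phox-/- and 96.7% in gp91phox-/-. In p47phox-/- it had 872 ± 139 per kilobase and came next to last, above Cybc1 with 475 ± 68.1, whereas in gp91phox-/- it had 3560 ± 216 and came second, with a range above those of Rac2, Ncf4 and Rac1. Cyba came first and Cybc1 last in every genotype. With the length of the longest principal transcript in place of merged exons, Cyba stayed first and Cybc1 last, but the WT order between them became Ncf4 (4428), Ncf1 (3659), Rac2 (3446) and Rac1 (2865).

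The highest Pearson correlations between subunits, on the log2(normalized count + 1) scale, were 0.86 for Ncf1 with Cybc1 and 0.78 for Ncf4 with Rac2, and Ncf1 with Cyba gave -0.09. These are descriptions over 9 libraries that share genotype and scaling. Among 10565 named genes with a mean of at least 50, the pattern most like that of Ncf1 was shown by Pla2g7, the secreted phospholipase that hydrolyses platelet-activating factor (correlation 0.98), the adhesion protein Emb (0.97) and the glycosyltransferase Gcnt2 (0.97). Their normalized counts were 22296 to 26269, 4868 to 4995 and 3623 to 5562 in WT, against 13347 to 17884.5, 2746 to 2963 and 1128 to 1462 in p47phox-/-, with no test, since these genes were chosen for sharing the pattern of Ncf1.

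The genes most like Cyba in pattern were Cops9 (0.99), Tmem256 (0.98) and Rnf121 (0.97), of which Cops9 ranged from 501 to 612 in WT and from 575 to 1081 in p47phox-/-. For Rac2 they were Prkcsh (0.92), Csk, the kinase that restrains Src family kinases (0.91), and Cotl1, a coactosin that binds actin (0.89). For Rac1 they were the mitotic genes Kif15 (0.96) and Cdk1 (0.96) and the ectoenzyme Bst1 (0.95), and Kif15 ranged from 125 to 417 in gp91phox-/-, where Rac1 also spread most. For Ncf4 they were Adprh, Tmub1 and Dnajc30 (0.96 each) and for Cybc1 Rrad (0.96), Calhm2 (0.96) and Abcd3 (0.94).

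Genes that load, phosphorylate, feed or regulate the oxidase were examined in 6 lists. In p47phox-/- against WT, limma called 0 of 15 genes of the Rac cycle (exchange factors, GTPase-activating proteins, inhibitors and related GTPases), 0 of 11 kinases of p47phox, 0 of 10 genes of lipid supply, 0 of 4 genes of stability and support, 0 of 8 transcription factors and 0 of 4 other oxidase genes that passed the filter. The share of all genes called in limma is the 1.12% given above. At an unadjusted p under 0.05, as for 15.0% of all genes, the numbers were 5, 2, 0, 1, 1 and 0 in the same order. edgeR called 0 in each list. DESeq2, which called 4.71% of all genes, called Rac3 and Bcr in the Rac cycle, the kinase Prkcz and the transcription factor Irf1, and 0 in the other 3 lists. The limma log2 fold changes of these were 1.18 for Rac3 (adjusted p = 0.0537), -0.79 for Bcr (adjusted p = 0.116), -4.08 for Prkcz, which was at 32.0 to 38.9 normalized counts in WT and 0 to 8.39 in p47phox-/- (adjusted p = 0.0913), and 0.57 for Irf1 (adjusted p = 0.0856).

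In gp91phox-/- against WT, where 2.53% of all genes were called higher and 4.53% lower, 1 or 2 genes of 5 lists changed and none of the 4 other oxidase genes was called (0 at an unadjusted p under 0.05, 0 in edgeR and 0 in DESeq2). Irf1, a transcription factor induced by interferon, rose from 5404 to 6230 normalized counts in WT to 11380 to 15564 in gp91phox-/- (log2 fold change 1.22, SE 0.14, adjusted p = 0.000252). It was the called gene among 8 transcription factors, and p47phox-/- libraries lay between at 7759 to 9587. Pak1, a kinase activated by Rac that phosphorylates p47phox, was the called gene among 11 kinases and rose from 1304 to 1579 in WT to 2310 to 2770 (log2 fold change 0.81, adjusted p = 0.00344). Both kept their call under all 21 alternatives. Spi1, for the myeloid regulator PU.1, was not called (log2 fold change -0.23, adjusted p = 0.478).

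The other 4 calls in gp91phox-/- were nearer the threshold. In the Rac cycle, the small GTPase Rap1a, which copurifies with the oxidase membrane subunits, rose (log2 fold change 0.58, adjusted p = 0.0197), and Bcr, a GTPase-activating protein for Rac, fell from 576 to 870 in WT to 352 to 466 (log2 fold change -0.85, adjusted p = 0.0389). In lipid supply, Pla2g4a, the cytosolic phospholipase that releases arachidonic acid, rose from 800 to 1039 in WT to 1297 to 1960 (log2 fold change 0.85, adjusted p = 0.0122). In stability and support, Hvcn1, the proton channel that balances the charge moved by the oxidase, fell from 4053 to 5304 in WT to 2555 to 3314 (log2 fold change -0.65, adjusted p = 0.0283). Hvcn1 is also expressed in B cells, and the summed B and plasma cell markers were lower in the same libraries, with 11 of 11 called lower, but their part in the Hvcn1 values was not tested.

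Each of these 4 calls could be lost by leaving out a single library. Rap1a lost its call without WT replicate 1 (adjusted p = 0.0809), WT replicate 3 (0.0585) or gp91phox-/- replicate 2 (0.102). Bcr lost it without WT replicate 1 (adjusted p = 0.145), WT replicate 3 (0.127), p47phox-/- replicate 1 (0.0517) or gp91phox-/- replicates 1, 2 or 3 (0.0565, 0.109 and 0.146). Pla2g4a lost it without WT replicate 1 (adjusted p = 0.0578), WT replicate 3 (0.0511), gp91phox-/- replicate 2 (0.054) or gp91phox-/- replicate 3 (0.0633). Hvcn1 lost it without WT replicate 1 (adjusted p = 0.0643), WT replicate 2 (0.111), gp91phox-/- replicate 2 (0.107) or gp91phox-/- replicate 3 (0.115). All 4 lost it without a mean-variance trend in the fit, with adjusted p of 0.0741, 0.0972, 0.0536 and 0.102 in the same order.

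Between the knockouts, where 3.97% of all genes were called higher and 5.96% lower in gp91phox-/-, Irf1 (log2 fold change 0.66, adjusted p = 0.0125), Pak1 (0.64, adjusted p = 0.0105) and Pla2g4a (1.12, adjusted p = 0.00207) were higher in gp91phox-/-. Arhgap25, a GTPase-activating protein for Rac in phagocytes, was lower in gp91phox-/- (log2 fold change -0.61, adjusted p = 0.0102). Uvrag, a subunit of a complex that makes phosphatidylinositol 3-phosphate, was lower as well (-0.59, adjusted p = 0.0194), and so was Pik3r5, a regulatory subunit of phosphoinositide 3-kinase gamma (-0.76, adjusted p = 0.0192). Without gp91phox-/- replicate 2, Irf1 (adjusted p = 0.0639) and Uvrag (0.0807) lost the call, without gp91phox-/- replicate 1 Uvrag (0.0633) and Pik3r5 (0.0708) did, and without p47phox-/- replicate 1 Pik3r5 did (0.0534). Without a mean-variance trend Irf1 (0.0558), Uvrag (0.0683) and Pik3r5 (0.0779) lost it. Without p47phox-/- replicates 2 and 3 together, all 6 lost it, with adjusted p from 0.0652 for Irf1 to 0.145 for Pak1, and p47phox-/- was then a single library assumed to vary like the other groups. Of the remaining 2 lists, 0 of 4 genes of stability and support were called (2 at an unadjusted p under 0.05, 0 in edgeR and 1, Clcn3, in DESeq2), as were 0 of 4 other oxidase genes (0 in each).

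**Figure D4:**
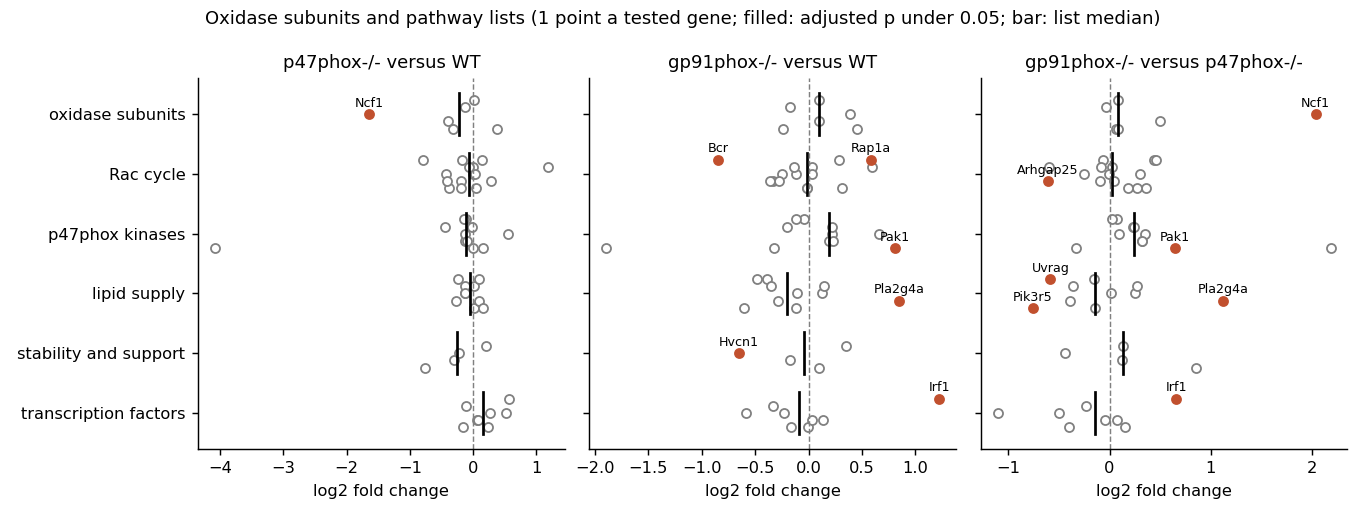
Log2 fold change of each tested gene of the oxidase subunits and of 5 lists of partner genes in the 3 comparisons, 1 point a gene, filled and named where the adjusted p is under 0.05, with the list median as a black bar and no difference as a dashed line. In p47phox-/- versus WT the only filled point is Ncf1, and in gp91phox-/- versus WT the filled points are Bcr, Rap1a, Pak1, Pla2g4a, Hvcn1 and Irf1; the horizontal scale differs between panels.

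Markers of other cells moved with the genotypes beside these results. Of all genes tested, limma called 1.12% in p47phox-/- against WT (0.5% lower). In gp91phox-/- against WT it called 7.05% (2.53% higher and 4.53% lower). All 11 B and plasma cell markers were called lower in gp91phox-/- against WT and 0 in p47phox-/- (limma, with 0 at an unadjusted p under 0.05 and 0 in edgeR and DESeq2). Of 7 dendritic cell markers, 3 were lower in gp91phox-/- (summed normalized counts 1276 to 2105 in WT and 792 to 866 in gp91phox-/-). Of 9 fibroblast and smooth muscle markers, 3 were higher in p47phox-/- and 2 in gp91phox-/-, with sums of 6444 to 8514 in WT, 10799 to 17604 in p47phox-/- and 9382 to 11287 in gp91phox-/-. Of 6 monocyte markers, F13a1 was higher in p47phox-/-, and of 6 T cell markers tested, Cd2 was lower in gp91phox-/-. Of the 14 macrophage markers, Fcgr1 was higher in gp91phox-/- than in WT. Between the knockouts 4 of the 14 were called in limma, beside 9.93% of all genes (3.97% higher and 5.96% lower in gp91phox-/-). Cx3cr1 (log2 fold change 3.74, adjusted p = 0.00164), Itgam (0.79, adjusted p = 0.0363) and Fcgr1 (0.62, adjusted p = 0.0264) were higher in gp91phox-/-. Cd68 was lower (-0.46, adjusted p = 0.0462). Cx3cr1 had mean normalized counts of 4866 in WT, 2184 in p47phox-/- and 19152 in gp91phox-/-, and was not called against WT in either knockout. Which part of the subunit differences these cells account for was not tested.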

How the data were processed

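RNA was extracted with an RNeasy Micro kit and sequenced as paired ends on a NovaSeq6000, per the labels' protocols. Base calls were converted with bcl2fastq 2.19, adapters trimmed with Cutadapt, reads aligned to mm10 with STAR 2.5.2b and counted with featureCounts, and DESeq2 was used, per the submitters' processing notes. The gene annotation and strand setting are not given in the sources used here. The authors deposited normalized counts, a signal equal to the reads on a gene over the size factor of its library (1.05 to 1.66). Whole reads were recovered for 100% of values (tolerance 0.01).

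Values were transformed to log2(normalized count + 1), so fold changes are on that scale. The 14404 genes that reached 10 normalized counts in 3 or more libraries were fitted in limma 3.58.1 (R 4.3.3) with a mean-variance trend, all 9 libraries in 1 fit, and called at a Benjamini-Hochberg adjusted p under 0.05. On recovered reads, edgeR 4.0.16 and DESeq2 1.42.0 were run as alternatives. Other pseudocounts, filters and scalings, the replicate number as a block, and fits without single libraries were tried too. The limma steps were tested on simulated counts in which 200 genes, drawn from all levels, were changed. Of 2-fold changes, 30% were recovered in p47phox-/- against WT, 43% in gp91phox-/- against WT and 29% between the knockouts. Of 4-fold changes, 70, 69 and 71% were recovered in the same order. False calls were 8 of 108, 5 of 117 and 5 of 105, so many true changes of these sizes would not be called. Loci, exons, lengths and overlaps came from GENCODE annotation of GRCm38. The members and lists were chosen with earlier results of these data known. A few single results are left out of the text, although counts over lists include them. Every list gene called in a comparison was named, with the 3 genes most like each member. The alternatives for list genes, and lengths by principal transcript, were chosen after seeing the data.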

Additional observations from a re-analysis of the deposited data

How the results depend on the processing

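Ncf1 kept its call in all 21 alternatives in p47phox-/- against WT (log2 fold change -1.87 to -1.54, adjusted p up to 0.0112) and between the knockouts (1.93 to 2.26, adjusted p up to 0.000784). With 1 library left out, these ranged from -1.77 to -1.54 and from 1.93 to 2.16. In gp91phox-/- against WT, Ncf1 was called with DESeq2 alone (log2 fold change 0.41, adjusted p = 0.0425), and ranged from 0.32 to 0.45 (adjusted p from 0.0527 to 0.292) with 1 library left out. The number of subunits called in gp91phox-/- against WT was 0, but 1 with DESeq2 (Ncf1), and 1 (Cyba) with only the 2 groups compared (adjusted p = 0.0483), without p47phox-/- replicates 2 and 3 (0.0466), and without p47phox-/- replicate 2, so it ranged from 0 to 1 with 1 library left out. Between the knockouts it was 1, but 2 (with Cybc1) under TMM scaling (adjusted p = 0.0397), DESeq2 size factors (0.0414), edgeR and DESeq2, and ranged from 1 to 2 with 1 library left out. The cause was not tested. The number in p47phox-/- against WT was 1 in every alternative, and no ratio changed its side of the threshold, which none could pass. No called value changed direction. Deviations of same-numbered libraries had correlations of -0.04 to 0.08, against -0.07 to 0.05 for libraries with different numbers. With 3 libraries a group, this cannot decide whether the numbers pair the samples. With the replicate block the numbers of subunits called were 1, 0 and 1 as without it, and Ncf1 had adjusted p of 0.00224, 0.171 and 1.86e-05.

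Counts over all genes varied more. In p47phox-/- against WT, 162 genes were called, but 101, 107 and 48 without WT replicates 1, 2 and 3, 58 without p47phox-/- replicate 3, 12 without p47phox-/- replicates 2 and 3, 101 with only the 2 groups compared, 52 without a trend and 678 with DESeq2. In gp91phox-/- against WT, 1016 were called, but 635, 628 and 664 without WT replicates 1, 2 and 3, 515 and 625 without gp91phox-/- replicates 2 and 3, 1560 without p47phox-/- replicate 2, 1530 without p47phox-/- replicates 2 and 3, 596 without a trend and 1754 with DESeq2. Between the knockouts 1430 were called, but 760 and 855 without gp91phox-/- replicates 2 and 3, 442 without p47phox-/- replicates 2 and 3, 898 without a trend and 2276 with DESeq2. With 3 libraries a group, a subunit that was not called is bounded by the interval of its difference, and equal levels are not shown.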
